A study of Homo sapiens with 30 samples.

Results

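The BCL2 family of survival and death genes was examined in RNA-Seq of the neuroblastoma (NB) cell line SH-EP and of 4 derivatives of it. The 10 genes, MCL1, BCL2, BCL2L1, BCL2L2, PMAIP1, BBC3, BCL2L11, BID, BAX, and BAK1, were chosen by their symbols, and all 10 were found among the 26228 genes of the expression table. All 10 also passed the filter for testing, which asks for an average of 1 FPKM or more, with BCL2 at 1.06 and BCL2L11 at 2.16 nearest to it. SH-EP is an established human line without MYCN amplification. The other 4 lines are SH-EP cells with stable retroviral expression of MYCN under an exogenous promoter, either WT or with an alanine in place of T58 (T58A), of S62 (S62A), or of both (T58A S62A). Whether each line is 1 clone or a pool is not given in the sources used here. Every line was kept in DMEM with 10% serum and treated for 6 hours with DMSO or with 1 μM CYC065, an inhibitor of CDK2 and CDK9, with 3 libraries per line and treatment and 30 in all. The libraries of a group are called a, b, and c, letters that carry no order or pairing. Nothing in the labels says that they came from separate cultures, so the p-values measure only the spread between these libraries, which may be technical.

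Values are FPKM, fragments scaled to transcript length and to the reads of a library, which allow levels of different genes to be set side by side. The authors added ERCC spike-ins, synthetic RNAs, by cell number, and the deposited FPKM are not scaled to them. The number of reads is unknown, but low values put the relative depth at 0.476 to 1 in DMSO and 0.297 to 0.563 in CYC065, where 1 is the deepest library. MYCN was listed at 0 FPKM in the 6 SH-EP libraries. In DMSO it was at 11.7 to 13.7 FPKM in WT, 5.08 to 6.59 in S62A, 7.27 to 9.84 in T58A, and 9.06 to 15.7 in T58A S62A. The mesenchymal markers VIM, PRRX1, SNAI2, FN1, CD44, and YAP1 were above 1 FPKM in all 30 libraries, with summed levels of 1564 to 5667 FPKM. Of 6 adrenergic markers, 5 were below 1 FPKM in every library, with PHOX2A at 0 throughout. Markers of endothelial, epithelial, and haematopoietic cells were below 1 FPKM in every library except CD68, at 2.54 to 36.6 FPKM. All 6 SH-EP libraries use an index that some MYCN line uses as well, so they may come from another pool, and pool and line cannot be told apart.

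Proteins of the BCL2 family decide whether the outer membrane of mitochondria stays intact. MCL1, BCL2, BCL2L1 (BCL-XL), and BCL2L2 (BCL-w) are survival proteins, which hold the effectors BAX and BAK1 in check. BH3-only proteins, here PMAIP1 (NOXA), BBC3 (PUMA), BCL2L11 (BIM), and BID, answer stress signals by binding the survival proteins or the effectors. Once freed, the effectors open pores through which cytochrome c leaves, and caspases are switched on. MCL1 mRNA and protein turn over quickly, and CDK9 releases paused RNA polymerase II into elongation, so that inhibitors of CDK9 are known to deplete short-lived transcripts. MYC proteins bind the E-box CACGTG and can sensitize cells to apoptosis.

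Promoters are shown for BBC3, BAX, and BID, because these 3 genes were higher in each of the 4 MYCN lines and because, of the 8 family genes with an entry in the RefSeq promoter table used (all but MCL1 and BCL2L2), they are the ones with an exact CACGTG in it. Of the 250 bases before the RefSeq start, those outside exons of the gene in GENCODE are given 5′ to 3′ on the gene's strand in GRCh37, with each CACGTG in capitals. That motif reads the same on both strands, and matches in the listing do not overlap. For BBC3 the window is chr19:47736024-47736174 on the minus strand, 151 bases with 1 match. For BAX it is chr19:49457882-49458071 on the plus strand, 190 bases with 2 of the 4 matches, the other 2 lying in an annotated exon. For BID, which has 5 listed starts, 2 windows overlap and hold the same single CACGTG, and the others hold none. The 1 of these 2 windows that is shown is chr22:18256809-18257058 on the minus strand, 250 bases that lie inside the BID locus between exons of its transcripts.
BBC3: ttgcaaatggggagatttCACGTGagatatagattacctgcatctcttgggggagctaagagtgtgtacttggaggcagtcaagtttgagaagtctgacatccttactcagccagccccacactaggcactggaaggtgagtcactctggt
BAX: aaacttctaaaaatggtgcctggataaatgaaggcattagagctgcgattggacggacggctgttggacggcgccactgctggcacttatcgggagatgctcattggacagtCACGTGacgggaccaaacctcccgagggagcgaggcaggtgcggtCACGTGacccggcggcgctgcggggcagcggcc
BID: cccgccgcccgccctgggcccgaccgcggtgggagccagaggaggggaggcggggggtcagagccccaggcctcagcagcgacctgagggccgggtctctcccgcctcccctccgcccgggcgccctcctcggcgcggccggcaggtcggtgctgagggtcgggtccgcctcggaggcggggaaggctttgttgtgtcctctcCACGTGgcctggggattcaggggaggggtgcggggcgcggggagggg

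Matches were sought in RefSeq windows of 300 bases, of which 250 lie before the start. CACGTG was in 7.23% of the 34943 windows of the table and in a window of 13.1% of the 8543 tested genes with an entry. The share was 18.2% among the 1708 genes higher in each of the 4 MYCN lines. By the mean of the lines, it was 16.8% among the 3072 genes higher and 9.40% among the 2298 lower. Among the 3173 genes not past the threshold in that mean it was 12.1%. The windows of BCL2, BCL2L1, BCL2L11, PMAIP1, and BAK1 hold no CACGTG. A match is a run of letters and was not tested as a binding site.

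In DMSO, SH-EP cells carried far more MCL1 and BAX mRNA per length than mRNA of the other family members. BAX (chromosome 19, 49458072 to 49465055 of GRCh37, protein coding), an effector, was at 113, 115, and 104 FPKM in the 3 SH-EP libraries. MCL1 (chromosome 1, 150533371 to 150552214) was at 95.5, 97.4, and 97.7 FPKM, and 92.5% of the 11575 tested genes had a lower mean over all libraries. Behind these came BID (chromosome 22, 18216904 to 18257536) at 25.0 ± 1.70 FPKM and PMAIP1 (chromosome 18, 57567228 to 57571537) at 19.2 ± 1.96 FPKM (mean ± SD, n = 3). BCL2L1 (chromosome 20, 30252255 to 30311792), BAK1 (chromosome 6, 33540324 to 33548070), and BCL2L2 (chromosome 14, 23767999 to 23780960) followed at 19.2 ± 1.51, 13.8 ± 0.887, and 11.3 ± 0.602 FPKM. BAX, MCL1, BID, and the pair PMAIP1 and BCL2L1 stood apart from each other, while the libraries of that pair overlapped. At the low end were BBC3 (chromosome 19, 47724079 to 47736023) at 2.59 ± 0.603 FPKM, BCL2L11 (chromosome 2, 111876955 to 111926021) at 1.84 ± 0.172 FPKM, and BCL2 (chromosome 18, 60790579 to 60987361) at 1.04 ± 0.196 FPKM. BCL2L2 shares its strand and part of its locus with the read-through gene BCL2L2-PABPN1, which averaged 72.2 FPKM over all libraries against 12.2 FPKM for BCL2L2, so how fragments were split between them is uncertain.

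**Figure D1:**
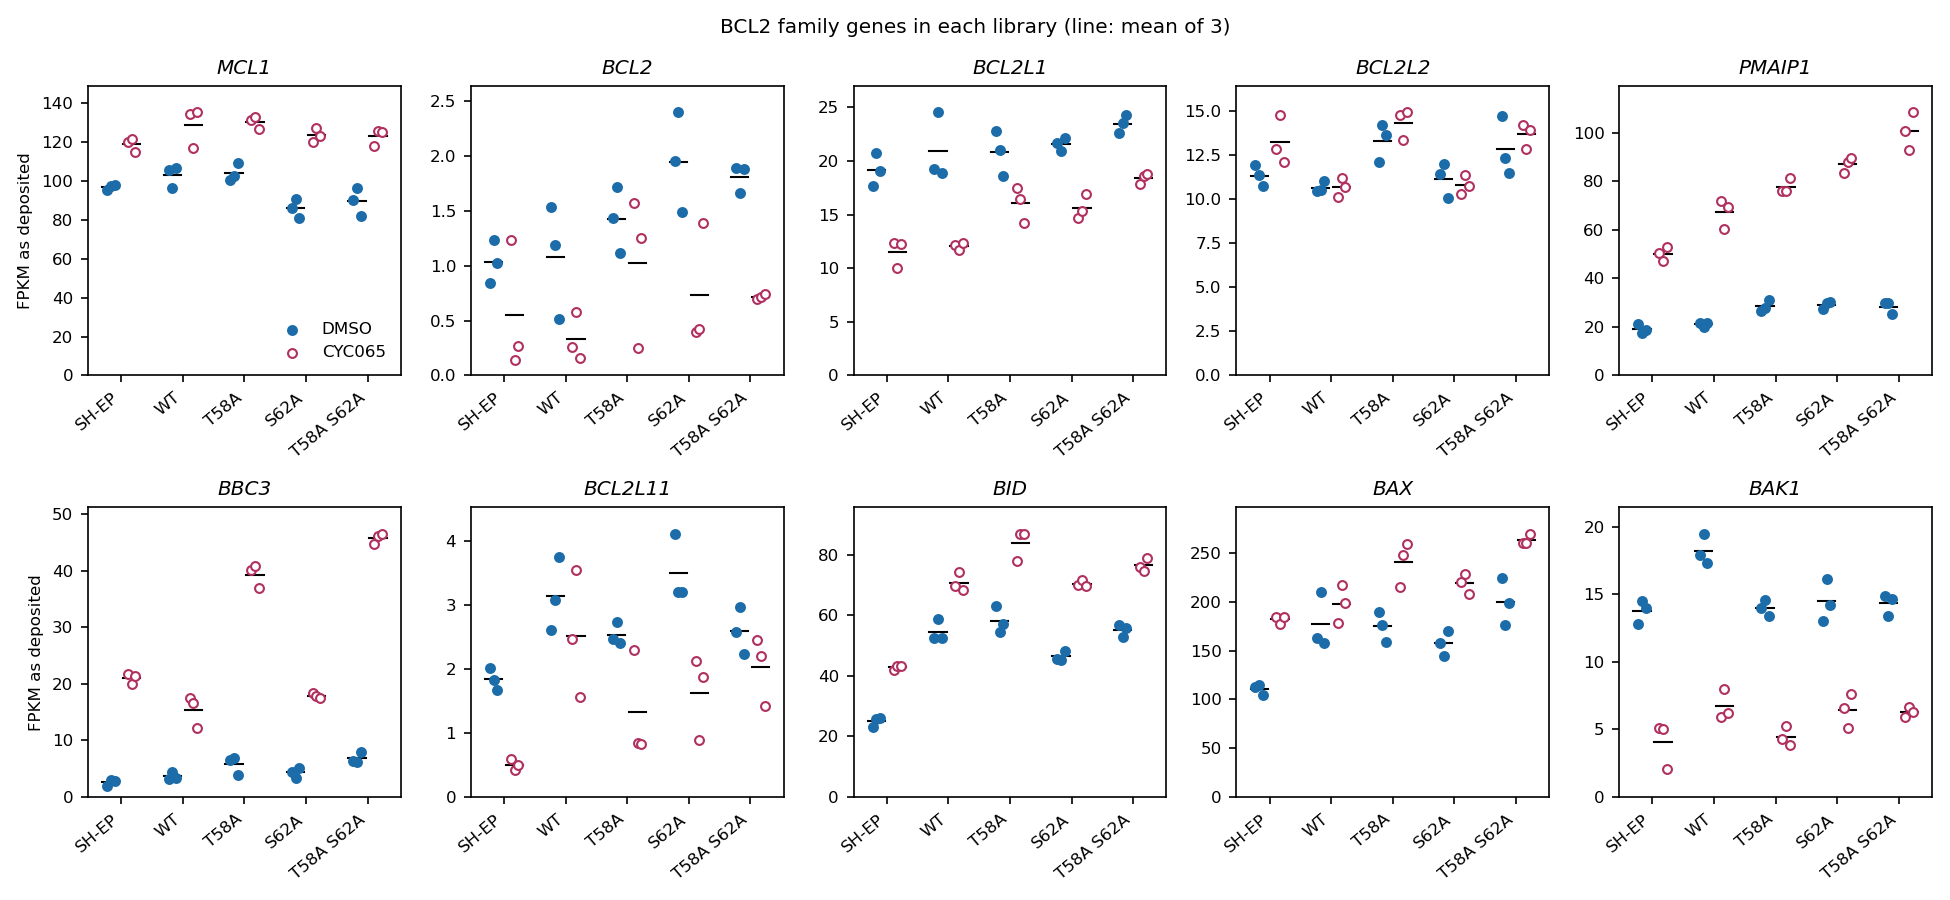
FPKM as deposited of each of the 10 genes (y axes, linear from 0) in each library of the 5 lines (x axis), DMSO filled and CYC065 open, with a line at the mean of 3 libraries. BBC3 and PMAIP1 have CYC065 libraries above every DMSO library of the same line, and BAK1 and BCL2L1 have them below.

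The first comparison set the basal levels of these genes in the MYCN lines, 1 line per construct, against those in SH-EP. On FPKM as deposited, the BH3-only genes BBC3 and BID and the effector BAX were higher than in SH-EP in each of the 4 MYCN lines, PMAIP1 was higher in the 3 mutant lines, and BAK1 passed the threshold in no line. Scaled to the spike-ins, where the median of all genes itself was lower in every MYCN line, the mean differences of all 10 genes were below 0. In the mean of the 4 lines, all 4 BH3-only genes and 1 of 2 effectors were higher, and 0 of 4 survival genes were past the threshold (limma on log2(FPKM + 0.1), Benjamini-Hochberg adjusted p under 0.05 over 11575 genes). By an unadjusted p under 0.05, 1 survival gene, BCL2L1, was, and it passed the adjusted threshold when 1 of 6 libraries was left out (SH-EP DMSO b, SH-EP CYC065 b, WT DMSO a or c, or T58A c of either treatment), at 0.17 to 0.23. The 4 comparisons share the SH-EP libraries.

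Per line, 3 of the 10 genes were higher in WT, where 31.6% of all tested genes were higher and 22.6% lower. In T58A, 5 of 10 were higher against 30.9% of all genes, with 23.3% lower. In S62A, 5 were higher and 1, MCL1, was lower, against 31% and 23.4% of all genes. In T58A S62A, 5 were higher, against 31.2% higher and 24.1% lower among all genes. In the mean of the lines 5 of 10 were higher, beside 34.6% of all genes higher and 26.3% lower. The 3 genes higher in each line compare with 19.2% of all tested genes. The median log2 difference of the 10 genes was 0.27 in WT, 0.55 in S62A, 0.43 in T58A, and 0.51 in T58A S62A, and that of all genes 0.05 to 0.07.

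BID, which links death receptor signals to mitochondria once caspase 8 cleaves it, had the greatest mean difference of the family. It was at 23.0, 25.8, and 26.1 FPKM in SH-EP, 52.5, 58.7, and 52.3 in WT, 45.6, 45.3, and 48.3 in S62A, 63.0, 54.5, and 57.1 in T58A, and 56.8, 52.8, and 55.8 in T58A S62A. No MYCN library overlapped SH-EP, and S62A lay below the other MYCN lines. The log2 difference from SH-EP was 1.12 (SE 0.06, adjusted p = 1.07e-13) in WT and 0.89 (SE 0.06, adjusted p = 6.85e-12) in S62A, with T58A at 1.22 and T58A S62A at 1.14. On average BID was 2.14-fold the SH-EP level.

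BBC3, a BH3-only protein that binds all survival proteins, was at 1.90, 2.97, and 2.91 FPKM in SH-EP and 3.21, 4.38, and 3.35 in WT. It was at 6.503, 6.90, and 3.91 FPKM in T58A, 4.42, 3.44, and 5.14 in S62A, and 6.37, 6.21, and 7.95 in T58A S62A. Each MYCN line lay above SH-EP without overlap, whereas neighbouring MYCN lines overlapped. The log2 difference rose from 0.49 (SE 0.19, adjusted p = 0.0292) in WT to 1.38 (SE 0.19, adjusted p = 8.81e-07) in T58A S62A. The WT call was lost without SH-EP library a, at 0.29, or without WT library b, at 0.35.

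PMAIP1, whose protein binds MCL1 above all, was at 21.3, 17.4, and 18.9 FPKM in SH-EP and 21.6, 19.9, and 21.5 in WT. The mutant lines had 26.4, 27.9, and 31.2 in T58A, 27.2, 29.8, and 30.2 in S62A, and 29.7, 30.04, and 25.3 in T58A S62A. SH-EP and WT overlapped, and all 9 mutant libraries lay above both. The log2 difference from SH-EP was 0.60 (SE 0.08, adjusted p = 1.54e-06) in S62A, 0.57 in T58A, and 0.56 in T58A S62A, but 0.13 (SE 0.08, adjusted p = 0.182) in WT, which passed the threshold only without SH-EP library a.

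BCL2L11, a low gene here, was at 2.02, 1.83, and 1.68 FPKM in SH-EP and 4.11, 3.21, and 3.20 in S62A, where its difference was 0.89 (SE 0.32, adjusted p = 0.024). Its values in the other 3 lines ran from 2.23 to 3.75 FPKM, above all SH-EP libraries. The mean difference, 0.63 (SE 0.26, adjusted p = 0.0368), was lost on leaving out any 1 of 6 libraries, at 0.57 to 0.70. These were SH-EP a, b, and c, S62A a, WT c, and T58A S62A b, all in DMSO. The S62A call was lost without S62A a, SH-EP b, or SH-EP c, at 0.77 to 0.88.

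Of the effectors, BAX moved and BAK1 did not pass the threshold. BAX was at 163, 210.2, and 158 FPKM in WT, 158, 144, and 170.1 in S62A, 189, 177, and 158 in T58A, and 224, 176, and 199 in T58A S62A, with all 12 libraries above those of SH-EP. Its log2 differences ran from 0.50 (SE 0.10, adjusted p = 1.53e-04) in S62A to 0.84 (SE 0.10, adjusted p = 1.26e-07) in T58A S62A. BAK1 was at 12.8, 14.5, and 13.96 FPKM in SH-EP and 17.9, 19.5, and 17.3 in WT, a difference of 0.40 (SE 0.21, adjusted p = 0.112) although the libraries did not overlap. Without SH-EP CYC065 library c, which enters the shared estimate of the spread, the adjusted p of this difference was 0.00957 and it passed. In the other 3 lines BAK1 lay within 13.04 to 16.2 FPKM, and its mean difference had a 95% interval of -0.21 to 0.49. The ratio of BAX to BAK1 FPKM went from 8.08 ± 0.691 in SH-EP to 13.9 ± 0.995 in T58A S62A (SD, n = 3).

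Among survival genes, MCL1 was at 106, 96.4, and 107 FPKM in WT, 85.9, 90.9, and 81.0 in S62A, 101, 102, and 109 in T58A, and 90.2, 96.2, and 82.1 in T58A S62A. S62A lay below SH-EP, with a difference of -0.17 (SE 0.06, adjusted p = 0.0155), a call that was lost without S62A library c, at -0.13. T58A lay above all SH-EP libraries but missed the threshold at 0.10 (SE 0.06, adjusted p = 0.149). BCL2L1 was higher in T58A S62A, at 22.6, 23.5, and 24.3 against 17.7, 20.7, and 19.1 FPKM in SH-EP, or 0.29 (SE 0.10, adjusted p = 0.0136). Without SH-EP library a that difference was 0.24 and missed the threshold. BCL2L2 was at 11.9, 11.4, and 10.7 FPKM in SH-EP and 12.1, 14.2, and 13.6 in T58A, which was higher by 0.23 (SE 0.09, adjusted p = 0.0338), and this was lost without SH-EP b or c or T58A b or c, at 0.18 to 0.23. BCL2, the founding member, was at 0.846, 1.24, and 1.03 FPKM in SH-EP and at most 2.39 FPKM in any DMSO library, and its mean difference of 0.49 had a 95% interval of -0.43 to 1.42.

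**Figure D2:**
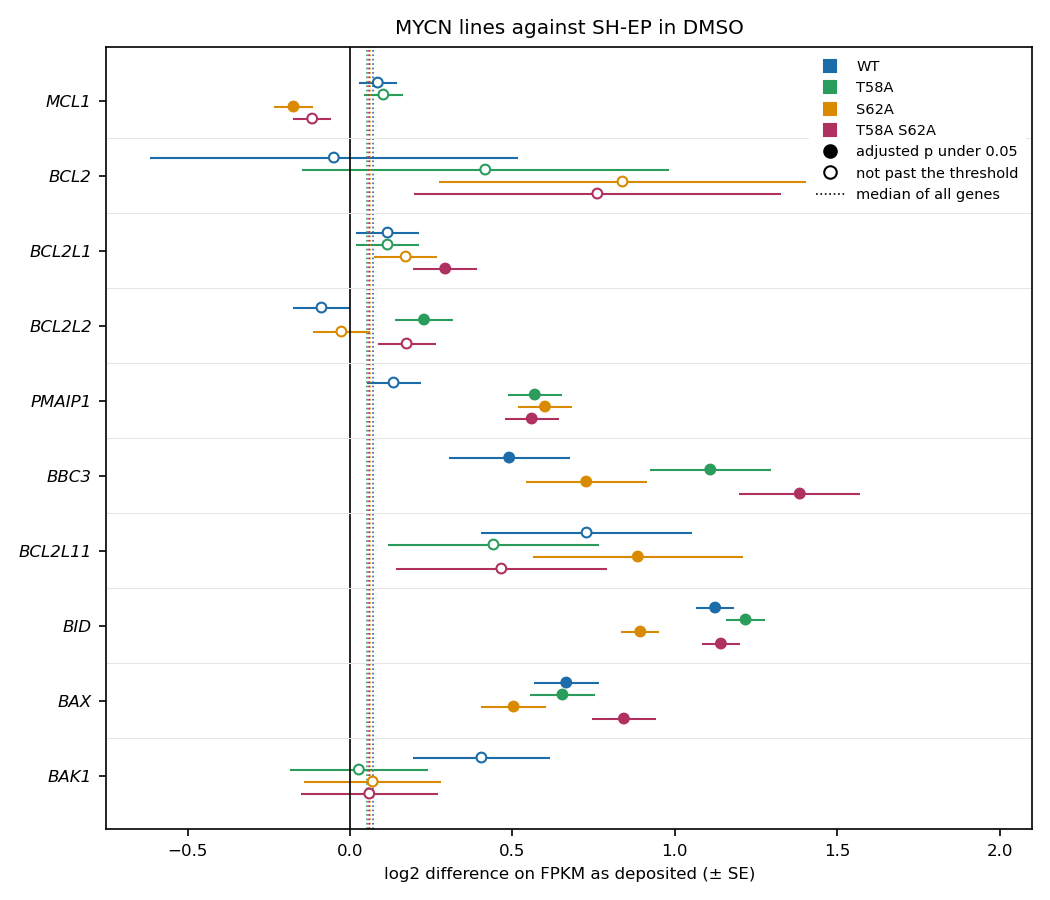
Log2 difference of each gene (y axis) between a MYCN line and SH-EP in DMSO (x axis, FPKM as deposited, bars ± SE from limma), filled where adjusted p was under 0.05, with dotted lines at the median of all tested genes. BID, BAX, and BBC3 are filled to the right in all 4 lines, and of the survival genes only MCL1 in S62A, BCL2L1 in T58A S62A, and BCL2L2 in T58A are filled. Scaled to the spike-ins, all 10 mean differences fall below 0.

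These directions hold relative to the other genes of a library. Scaled to the spike-ins, the median of all tested genes was -1.16 in WT, -1.86 in S62A, -0.88 in T58A, and -0.75 in T58A S62A on the log2 scale. The spike-ins were added by cell number, but less RNA per cell cannot be told apart here from fewer cells than counted or from uneven spike-ins. On that scale the S62A values of all 10 genes were below 0, whereas BBC3 and BID were at 0.58 and 0.31 in T58A S62A. BID was -0.15, BBC3 -0.29, BAX -0.58, and PMAIP1 -0.78 in the mean of the lines. Relative to the shifted median they were 1.02, 0.88, 0.59, and 0.39, and MCL1 was -0.11.

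The second comparison set the mutant lines against WT MYCN in DMSO, again on FPKM as deposited. PMAIP1 was higher in all 3 mutant lines, and BBC3 and BCL2L2 were higher in the 2 lines that carry T58A. MCL1 was lower in the 2 lines that carry S62A, and BID was lower in S62A alone among the 3 contrasts. In counts, 3 of 10 genes differed in either single mutant and 4 in T58A S62A, beside 23.6% of all tested genes in T58A, 24.1% in S62A, and 23.7% in the double mutant. These 3 comparisons share the WT libraries. Each construct is 1 line, and MYCN levels differ between the lines, so mutation, line, and MYCN level cannot be told apart. Scaled to the spike-ins, the median of all genes against WT was 0.28, -0.71, and 0.39, and PMAIP1 was 0.74, -0.23, and 0.85 in T58A, S62A, and T58A S62A.

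PMAIP1 was 0.47 (SE 0.08, adjusted p = 1.99e-04) above WT in S62A, and 0.43 and 0.43 in T58A and T58A S62A. The highest WT library, at 21.6 FPKM, lay below the lowest mutant library, at 25.3 FPKM. BBC3 exceeded WT by 0.62 (SE 0.19, adjusted p = 0.0169) in T58A and 0.89 (SE 0.19, adjusted p = 9.07e-04) in T58A S62A. In S62A its difference was 0.24 (SE 0.19, adjusted p = 0.396). The T58A call was lost without T58A a or b or WT a or c, at 0.47 to 0.57.

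The difference of MCL1 from WT was -0.26 (SE 0.06, adjusted p = 0.00219) in S62A and -0.20 (SE 0.06, adjusted p = 0.0141) in T58A S62A, with 0.02 in T58A. The T58A S62A call was lost without T58A S62A c or WT a or c, at -0.18 to -0.14, and on spike-in scaled FPKM that difference was 0.22, beside a median of all genes of 0.39. BCL2L2 exceeded WT by 0.32 in T58A and 0.26 in T58A S62A. The first was lost without T58A b, at 0.27, and the second without T58A S62A a or WT a or b, at 0.16 to 0.25. BID in S62A was -0.23 (SE 0.06, adjusted p = 0.00569), and without WT library b it was -0.18 and missed the threshold.

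The third comparison asked how mRNA levels of the family differed after 6 hours of CYC065. Scaled to the spike-ins, 8 of the 10 genes fell in each of the 5 lines, all 4 survival genes, both effectors, BID, and BCL2L11. Of these, BCL2 passed the filter on low values through its DMSO groups and is counted only as a description. BBC3 rose in SH-EP, T58A, S62A, and T58A S62A, and PMAIP1 rose in T58A S62A and in the mean of the 5 lines. The median of all tested genes was -1.06 in SH-EP on the log2 scale, -1.57 in WT, -1.35 in S62A, -1.08 in T58A, and -0.97 in the double mutant T58A S62A.

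Increases were rare over all genes, at 0.907% in SH-EP, 0.769% in WT, 1.25% in T58A, 0.968% in S62A, 1.85% in T58A S62A, and 1.59% in the mean. Beside these, 1, 0, 1, 1, and 2 of the 10 family genes rose in the 5 lines and 2 in the mean, the 0 being WT, where by an unadjusted p under 0.05 no gene of the family rose either. Decreases took 75.7%, 93.7%, 84.2%, 90.2%, and 76.3% of all genes in the same order and 94.4% in the mean, so a fall in 8 of 10 is near the background.

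BBC3 went from 6.23, 9.07, and 9.36 to 31.0, 28.6, and 25.0 spike-in scaled FPKM in SH-EP. In T58A it went from 7.80, 13.4, and 7.48 to 28.2, 29.7, and 26.9, and in T58A S62A from 12.8, 11.2, and 12.5 to 31.2, 44.9, and 41.5. In S62A it went from 3.62, 3.23, and 3.71 to 5.78, 4.63, and 5.22, and in WT from 3.61, 7.21, and 4.28 to 7.34, 7.77, and 4.41. Treated and untreated libraries overlapped only in WT. The log2 change was 1.78 (SE 0.24, adjusted p = 1.56e-07) in SH-EP, 1.61 in T58A, 1.66 in T58A S62A, and 0.55 (SE 0.24, adjusted p = 0.031) in S62A. In WT it was 0.38 (SE 0.24, adjusted p = 0.121), and it passed the threshold without WT DMSO b, at 0.67, or WT CYC065 c, at 0.64. The S62A call was lost without S62A DMSO a or b or S62A CYC065 a or c, at 0.47 to 0.57.

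PMAIP1 moved less than most genes per spike-in. It was at 70.0, 53.1, and 60.7 and then 71.8, 67.7, and 61.8 spike-in scaled FPKM in SH-EP, and at 59.6, 54.2, and 39.8 and then 70.3, 90.3, and 96.7 in T58A S62A. Only T58A S62A had treated libraries that all lay above the untreated ones. Its change was 0.75 (SE 0.19, adjusted p = 0.00109) there and 0.24 (SE 0.09, adjusted p = 0.00988) in the mean of the lines. In the other 4 lines it ran from -0.01 in WT, with a 95% interval of -0.41 to 0.38, to 0.26 in T58A. Relative to the median of all genes the mean change of PMAIP1 was 1.44, and that of BBC3 2.39.

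The other BH3-only genes took opposite places around the median of all genes. BCL2L11 fell by 2.18 on the log2 scale in the mean (SE 0.16, adjusted p = 7.72e-13), or -0.98 relative to that median. In SH-EP it went from 2.02, 1.83, and 1.68 to 0.591, 0.426, and 0.500 FPKM as deposited, without overlap. BID fell by 0.79 (SE 0.08, adjusted p = 3.59e-10), which is 0.41 relative to the median. In SH-EP it went from 75.5, 78.7, and 83.9 to 59.8, 61.9, and 50.4 spike-in scaled FPKM, and in WT from 59.1, 96.5, and 66.8 to 29.3, 34.7, and 24.6, without overlap in either line. The decrease of BID in SH-EP, -0.47 (SE 0.18, adjusted p = 0.0192), was lost without SH-EP DMSO c, at -0.43, or SH-EP CYC065 c, at -0.38.

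The survival genes fell unevenly. MCL1 was at 313, 297, and 314 spike-in scaled FPKM in SH-EP DMSO and 171, 174, and 134 in CYC065, and in T58A S62A at 181, 173, and 129 and 82.4, 122, and 112. Untreated and treated libraries did not overlap in any of the 5 lines. Its log2 change ran from -1.36 (SE 0.19, adjusted p = 2.00e-07) in WT to -0.62 (SE 0.19, adjusted p = 0.00458) in T58A S62A, and in the mean it lay 0.24 above the median of all genes. BCL2L2 fell by 1.25 in the mean, close to that median. BCL2L1, at 58.1, 63.1, and 61.5 and then 17.5, 14.3, and 14.4 in SH-EP, fell by 1.87 (SE 0.08) and BCL2 by 2.32 (SE 0.25), or -0.68 and -1.13 relative to the median. BCL2 is near the floor of the table, at 0.141 to 1.57 FPKM in treated libraries. It passed the filter through its DMSO groups, with means of 1.04 to 1.95 FPKM against 0.332 to 1.03 in treated groups, so its decrease is given as a description, and its T58A decrease of -1.77 was lost without T58A CYC065 b, at -1.12.

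The effectors diverged as well. BAK1 went from 42.0, 44.3, and 44.9 to 7.28, 7.22, and 2.45 spike-in scaled FPKM in SH-EP and from 29.9, 24.2, and 23.1 to 4.14, 6.51, and 5.58 in T58A S62A, and groups overlapped in no line. It fell by 2.77 in the mean (SE 0.14, adjusted p = 5.90e-17), the greatest decrease of the 10 genes and -1.58 relative to the median of all genes. BAX fell by 0.89 (SE 0.09, adjusted p = 3.36e-10), a change that lies 0.30 above that median. In SH-EP it went from 371, 351, and 336 to 262, 255, and 216 spike-in scaled FPKM, and in WT from 184, 346, and 202 to 74.9, 102, and 71.8. Groups overlapped in neither line. In SH-EP the decrease of BAX, -0.53 (SE 0.20, adjusted p = 0.0189), was lost without SH-EP DMSO a, at -0.50, or SH-EP CYC065 c, at -0.45.

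On FPKM as deposited, which give each gene's share of a library, the same libraries place the genes on either side of 0. In the mean of the 5 lines, 5 of 10 rose, MCL1, PMAIP1, BBC3, BID, and BAX, and 4 fell, BCL2, BCL2L1, BCL2L11, and BAK1, beside 46.9% of all genes higher and 39.8% lower. BCL2 passed the filter on low values through its DMSO groups, so its decrease is a description only on this scale too. BBC3 went from 1.90, 2.97, and 2.91 to 21.8, 19.9, and 21.4 FPKM in SH-EP and from 6.37, 6.21, and 7.95 to 44.8, 46.1, and 46.5 in T58A S62A. Over the 5 lines its mean change was 2.52 (SE 0.08, adjusted p = 5.26e-19), a 5.74-fold rise. PMAIP1 went from 21.3, 17.4, and 18.9 to 50.5, 47.2, and 52.9 FPKM in SH-EP and from 29.7, 30.04, and 25.3 to 101, 92.8, and 108 in T58A S62A, with a mean change of 1.58 (SE 0.04, adjusted p = 9.74e-22). All treated libraries of both genes lay above the untreated ones of the same line.

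MCL1 as deposited was at 81.0, 96.4, and 109 FPKM over the 15 DMSO libraries and at 115, 125, and 135 over the 15 CYC065 libraries, given as lowest, median, and highest. Its mean change was 0.38 (SE 0.03, adjusted p = 1.03e-12), with line values from 0.29 in SH-EP to 0.52 in S62A. Its direction therefore turns with the scaling, as do those of BID and BAX. BAK1 and BCL2L1 were lower on both scales, with deposited changes of -1.45 (SE 0.09, adjusted p = 3.82e-13) and -0.54 (SE 0.04, adjusted p = 2.78e-11). BCL2L2, at 0.08, did not pass the threshold as deposited.

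**Figure D3:**
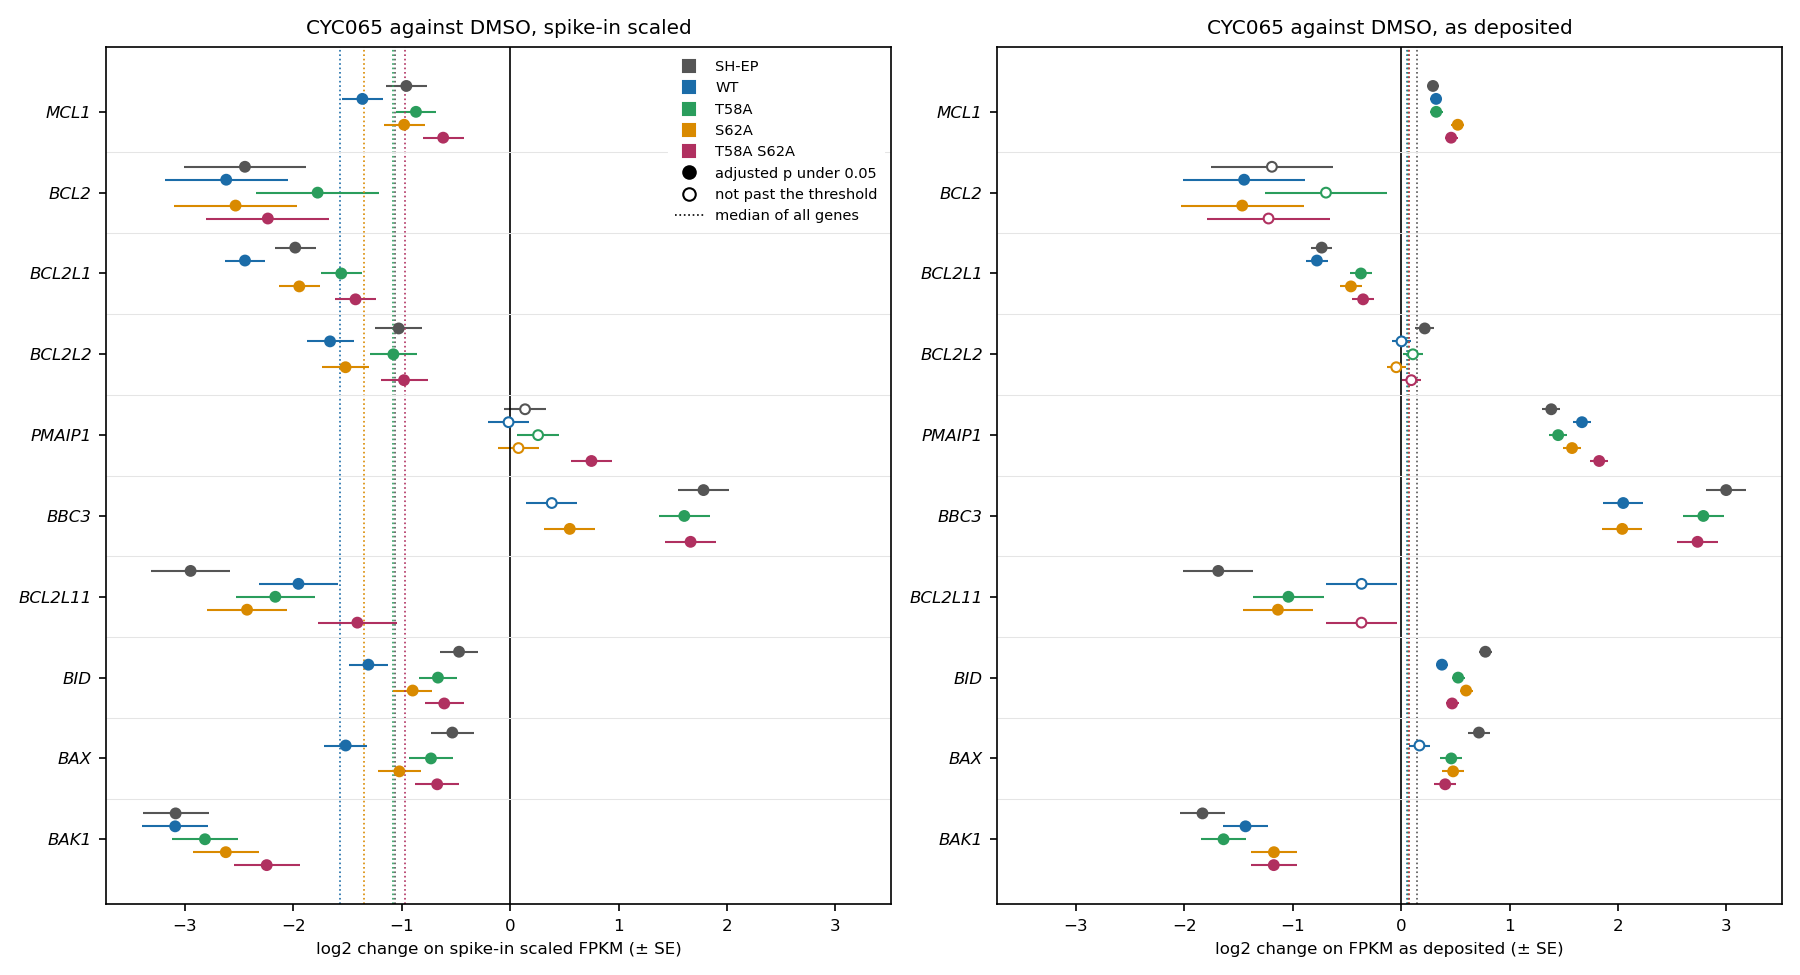
Log2 change of each gene (y axis) with CYC065 in the 5 lines (x axis, bars ± SE from limma), on spike-in scaled FPKM at left and FPKM as deposited at right, filled where adjusted p was under 0.05, with dotted lines at the median of all tested genes. PMAIP1 and BBC3 lie to the right of every dotted line on both scales, BCL2L1 and BAK1 to the left of those of their own lines, and MCL1, BID, and BAX change sides of 0.

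Ratios of FPKM within a library do not depend on how libraries are scaled, and they are given here as descriptions without a test. MCL1 made up most of the summed FPKM of the 4 survival genes in DMSO, 75.8, 74.5, and 76.0% in the SH-EP libraries and 69.7, 71.9, and 68.6% in those of T58A S62A. With CYC065 its share was 82.0, 83.0, and 82.3% and 78.3, 79.7, and 78.9%. Over all lines the share was 68.6 to 77.8% in DMSO and 78.3 to 85.6% in CYC065, ranges that do not overlap. The difference in line means was 6.99 percentage points in SH-EP, 8.86 in WT, 10.7 in S62A, 6.03 in T58A, and 8.90 in T58A S62A, with a pooled SD of 1.40 between libraries. BCL2L1 went the other way, from 13.03 to 20.3% to 6.83 to 11.8%, and the MCL1 to BCL2L1 ratio from 3.38 to 5.88 to 6.63 to 12.2. Sums over the survival genes leave out the read-through gene BCL2L2-PABPN1, which averaged 52.2 FPKM in SH-EP DMSO. If its fragments belong to BCL2L2, the shares of MCL1 and BCL2L1 and the ratios to summed survival FPKM would be lower.

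The ratio of PMAIP1 to MCL1, an antagonist over its main target, was 0.223, 0.179, and 0.193 in SH-EP DMSO and 0.421, 0.388, and 0.460 in SH-EP CYC065. In T58A S62A it was 0.329, 0.312, and 0.308 and then 0.853, 0.738, and 0.865. The order of the treated lines from low to high began with SH-EP and WT, went on with T58A and S62A, and ended with T58A S62A, and no 2 neighbours in it overlapped. For BBC3 over MCL1 the treated lines formed another order, WT at 0.121 ± 0.0268, S62A at 0.145 ± 0.00644, SH-EP at 0.177 ± 0.0117, T58A at 0.302 ± 0.00898, and T58A S62A at 0.372 ± 0.00632 (SD, n = 3). WT and S62A overlapped there, and the others stood apart from their neighbours. BAX over BAK1 was 7.48 to 15.03 in DMSO and 27.1 to 88.3 in CYC065, the highest value being SH-EP CYC065 library c, in which BAK1 was at 2.09 FPKM and which had the lowest relative depth.

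Summed over roles, the 4 BH3-only genes stood at 0.379 ± 0.00959 of the summed survival FPKM in SH-EP DMSO, 0.608 ± 0.0358 in WT, 0.693 ± 0.0570 in S62A, 0.681 ± 0.0326 in T58A, and 0.729 ± 0.0375 in T58A S62A (SD, n = 3). BID supplied much of the difference between SH-EP and WT. Without BID the ratio was 0.184 ± 0.0152 in SH-EP, 0.205 ± 0.00440 in WT, and 0.296 ± 0.00258 in T58A S62A. The ranges of SH-EP and WT, 0.1701 to 0.2003 and 0.2004 to 0.2088, nearly touch but do not overlap. With CYC065 the ratio of all 4 was 0.795 ± 0.0453 in SH-EP and 1.44 ± 0.0677 in T58A S62A, and it lay above 1 in all libraries of T58A (1.19 to 1.31), S62A (1.15 to 1.19), and T58A S62A (1.37 to 1.48). WT libraries lay on both sides of 1, with a mean of 1.03 ± 0.0724. Without BID, no treated library reached 1, the highest group being T58A S62A at 0.953 ± 0.0518. These are ratios of mRNA FPKM, and protein was not measured in these libraries, so 1 is a numerical mark only.

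**Figure D4:**
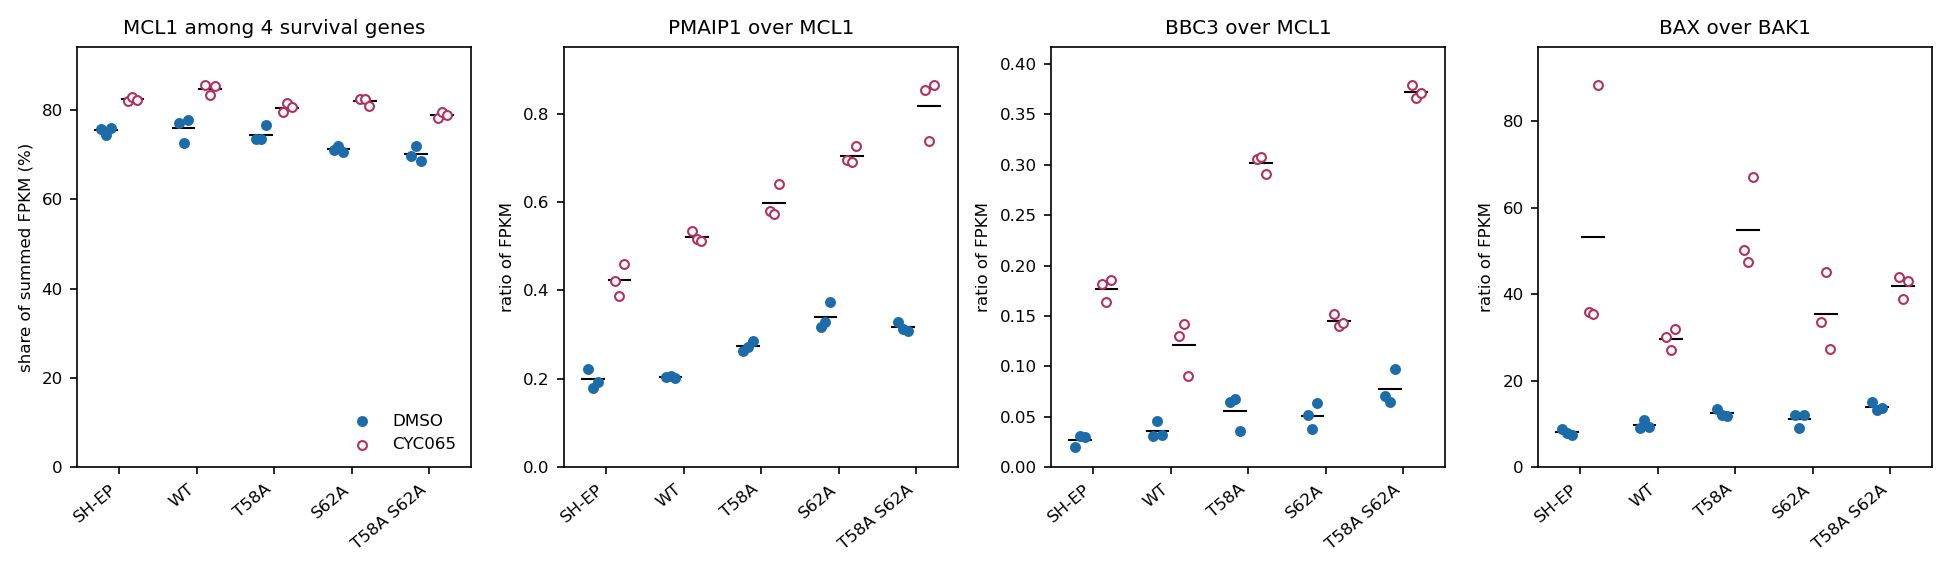
Per library in the 5 lines (x axis), DMSO filled and CYC065 open, with a line at the mean of 3: the share of MCL1 in the summed FPKM of 4 survival genes (percent), and the FPKM ratios of PMAIP1 to MCL1, BBC3 to MCL1, and BAX to BAK1, all axes from 0. Treated libraries lie above untreated ones of the same line in all 4 panels, and among treated libraries T58A S62A is highest for both BH3-only ratios.

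The fourth comparison tested whether the response to CYC065 differed between lines, on spike-in scaled FPKM. The change of BBC3 was smaller in WT and S62A than in SH-EP, and BID and BAX fell more in WT. In counts, 3 of 10 genes differed from SH-EP in WT, beside 18.1% of all genes, and 1 in S62A, beside 4.95%. In T58A, T58A S62A, and the mean of the lines, limma called 0 of 10, beside 2.59%, 5.41%, and 6.1% of all genes, and an unadjusted p under 0.05 was reached by 0, 3, and 2 family genes and by 1408, 1648, and 2392 of the 11575 tested genes. With spike-ins of at least 50 FPKM for scaling, 1 of the 4 calls was past the threshold, BBC3 in S62A, and the 3 calls in WT were also lost in a fit of only the groups compared. The response of all genes in WT was itself lower than in SH-EP, with a median of -0.52, and in S62A of -0.29.

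For BBC3 the difference in log2 change from SH-EP was -1.40 (SE 0.33, adjusted p = 0.0193) in WT and -1.23 (SE 0.33, adjusted p = 0.0291) in S62A. In T58A and T58A S62A it was -0.18 and -0.12, with 95% intervals of -0.86 to 0.51 and -0.81 to 0.57. Relative to the median of all genes the difference was -0.88 in WT and -0.94 in S62A, and as deposited it was -0.95 (SE 0.26, adjusted p = 0.00961) and -0.96 (SE 0.26, adjusted p = 0.00921). The WT call on spike-in scaled FPKM was lost without WT DMSO b, WT CYC065 c, SH-EP DMSO a, or SH-EP CYC065 a or b, at -1.39 to -1.11. The S62A call was lost without S62A DMSO a or c, S62A CYC065 b or c, SH-EP DMSO a, or SH-EP CYC065 a or b, at -1.24 to -1.05.

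In WT, BID differed from SH-EP by -0.84 (SE 0.25, adjusted p = 0.0354) and BAX by -0.98 (SE 0.28, adjusted p = 0.034). As deposited the differences were -0.40 (SE 0.08, adjusted p = 0.00106) and -0.55 (SE 0.14, adjusted p = 0.00571). Both calls on spike-in scaled FPKM were lost without WT DMSO b, WT CYC065 a or c, any SH-EP DMSO library, or SH-EP CYC065 a or b, at -0.88 to -0.63 for BID and -1.02 to -0.70 for BAX. MCL1 differed by -0.41 in WT, with a 95% interval of -0.95 to 0.14, and PMAIP1 by 0.61 in T58A S62A, with an interval of 0.05 to 1.17. BCL2L11 had the greatest positive difference, 1.54 (SE 0.52, adjusted p = 0.0929) in T58A S62A, and did not pass the threshold. As deposited, further responses differed from SH-EP. BCL2L1, PMAIP1, and BCL2L11 were past the threshold upward in T58A S62A, BCL2L11 in WT, and MCL1 in S62A. BID was past it downward in T58A and T58A S62A. In the mean of the lines PMAIP1 and BCL2L11 were past it upward, and BBC3, BID, and BAX downward. The share of all genes called on that scale was not taken, so these calls cannot be set beside a background.

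Against WT, the responses of BCL2L1, BBC3, and BAX in T58A S62A differed, beside 17.3% of all genes, by 1.02 (SE 0.27, adjusted p = 0.037), 1.28 (SE 0.33, adjusted p = 0.037), and 0.84 (SE 0.28, adjusted p = 0.0467). The median of all genes in that contrast was 0.61, and as deposited the differences were 0.43, 0.69, and 0.24, none past the threshold. Those of BCL2L1 and BBC3 were lost on leaving out any 1 of 7 libraries, WT DMSO b, WT CYC065 a or c, or T58A S62A b or c of either treatment, at 0.75 to 1.04 and 0.99 to 1.39. That of BAX was lost in 20 of 30 such fits, these 7 among them, at 0.56 to 0.84. In T58A and S62A limma called 0 of 10 genes, beside 0.0432% and 0% of all genes. An unadjusted p under 0.05 was reached by 4 and 0 family genes there and by 3949 and 719 of all genes. With spike-ins of at least 50 FPKM, without a filter, or in a fit of only the groups compared, 0 of the 3 calls in T58A S62A were past the threshold. Leaving out WT DMSO library a gave 11 family differences over the 3 contrasts in place of 3, and leaving out any of the 7 libraries above gave 0.

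**Figure D5:**
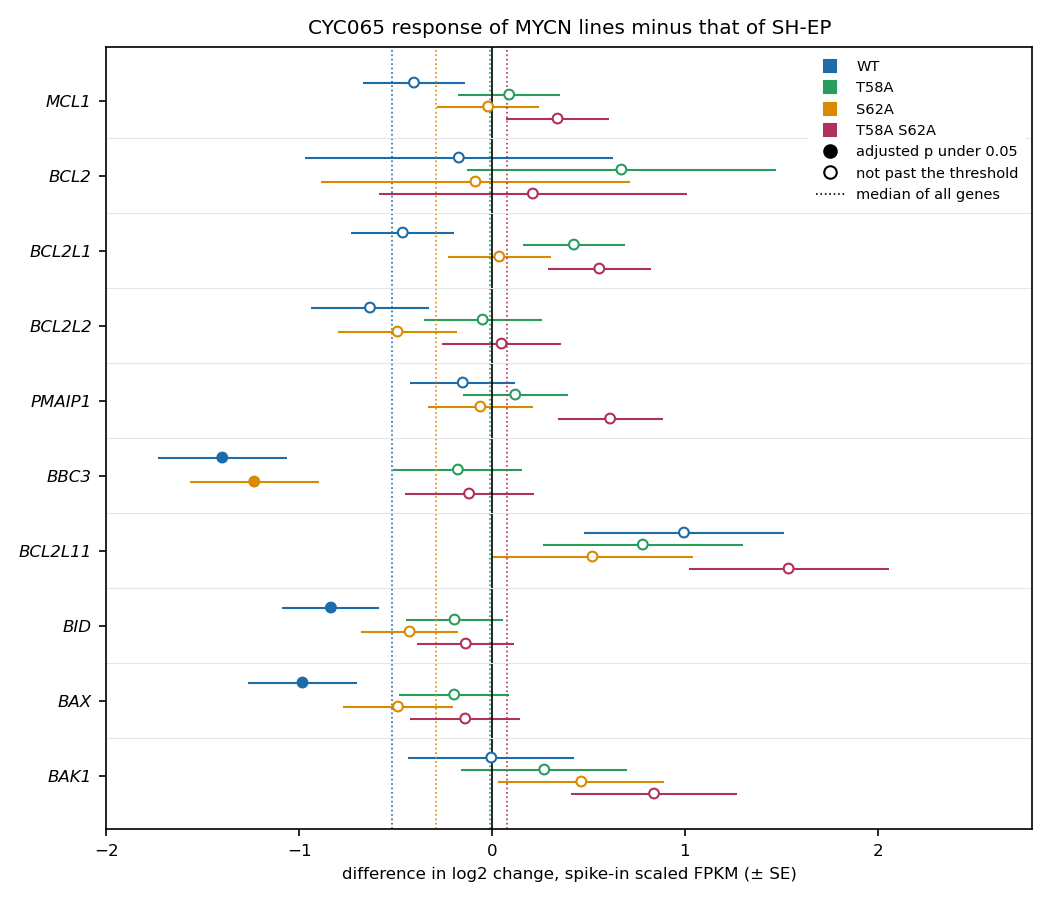
Difference of each gene (y axis) in log2 change with CYC065 between a MYCN line and SH-EP (x axis, spike-in scaled FPKM, bars ± SE from limma), filled where adjusted p was under 0.05, with dotted lines at the median of all tested genes. The 4 filled points are BBC3 in WT and S62A and BID and BAX in WT, all left of 0.

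The wider death pathway was read from 6 further lists, each given by counts in the mean of the 4 MYCN lines against SH-EP in DMSO, as deposited, and in the mean CYC065 change of the 5 lines, spike-in scaled. Of all tested genes, 34.6% were higher and 26.3% lower in the mean of the MYCN lines. With CYC065 as deposited, 46.9% were higher and 39.8% lower. These shares are the background of every such count in the 6 lists. Of 13 other BCL2 family genes, 5 passed the filter on low values, and 1 was higher and 2 lower in the MYCN lines, with a median of 0.03 beside 0.06 for all genes. BNIP3L and BNIP3, which mark mitochondria for mitophagy, were at -0.72 and 0.25, and the BH3-only gene BAD at -0.22. All 5 fell with CYC065, as did 94.4% of all genes, the background of each such count that follows, with a median of -0.77 beside -1.20 for all genes. As deposited, 4 of the 5 rose and 1 fell. Per spike-in BCL2L13, BCL2L12, and BNIP3 changed by -1.67, -0.85, and -0.77.

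Downstream of the pores, all 12 genes of the caspase pathway were tested. In the MYCN lines 3 were higher and 4 lower, beside 34.6% and 26.3% of all genes. The executioner caspase gene CASP6 was at -0.86, while CYCS, which encodes cytochrome c, and AIFM1, a mitochondrial flavoprotein gene, were at 0.80 and 0.79. All 12 fell with CYC065, with a median of -1.55, and as deposited 3 rose and 7 fell. CASP8 and CASP2 changed by -2.41 and -2.31 per spike-in. Of 7 inhibitor of apoptosis genes, 5 were tested and 3 were higher in the MYCN lines, BIRC3 by 1.64, BIRC5 (survivin) by 0.51, and BIRC2 by 0.23. With CYC065 4 of 5 fell per spike-in, and as deposited 3 rose and 2 fell. Per spike-in XIAP, an inhibitor of caspases, fell by 2.01, BIRC6 by 1.80, and BIRC2 by 1.21 on the log2 scale.

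Of 6 genes that govern turnover of the MCL1 protein, 5 were tested, and by limma 0 were past the threshold in the MYCN lines. Their unadjusted p was under 0.05 for 0 of 5. With CYC065 4 fell and 1 rose per spike-in, and as deposited 3 rose and 2 fell. Those that fell per spike-in included BTRC at -2.52, the deubiquitinase gene USP9X at -1.47, and FBXO4 at -1.09. The 1 that rose, named after its value was seen, was FBXW7, a ubiquitin ligase receptor gene, at 0.41 (SE 0.10, adjusted p = 4.54e-04). Of 7 transcription factors known to act on BH3-only genes, 6 were tested, and 2 were higher and 2 lower in the MYCN lines, with FOXO1 at -0.90 and E2F1 at 0.55. All 6 fell with CYC065, with a median of -2.14, and as deposited 2 rose and 4 fell. Per spike-in DDIT3, FOXO1, and FOXO3 changed by -2.97, -2.71, and -2.44.

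Of 7 death receptor and ligand genes, 6 were tested, and 1 was higher and 2 lower in the MYCN lines. The ligand gene TNFSF10 (TRAIL) was at -3.09, its receptor gene TNFRSF10B at 0.47, and TNFRSF1A at -0.22. All 6 fell with CYC065, with a median of -1.90, and as deposited 0 rose and 4 fell. Per spike-in TNFRSF1A, the adaptor gene FADD, and TNFSF10 changed by -4.96, -4.12, and -1.93. As deposited, the medians of the 6 lists with CYC065 were 0.57, -0.29, 0.13, 0.23, -0.86, and -0.64 in the order given, beside 0.10 for all genes. Against SH-EP, the response of 4 genes of these lists differed in the mean of the MYCN lines, beside 6.1% of all genes. They were 1 of 5 tested inhibitor of apoptosis genes, 1 of 6 transcription factors, and 1 upward and 1 downward of 6 death receptor and ligand genes. Named after their values were seen, DDIT3 (3.34) and FADD (2.30) fell less than in SH-EP, and BIRC3 (-1.54) and TNFRSF10B differed the other way. Fold changes on the log2(FPKM + 0.1) scale understate those of low genes.

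Across the 10 group means of log2(FPKM + 0.1), as deposited, the genes most like MCL1 among all tested were CRABP2, SPRY2, and RGMB, with Pearson's r of 0.969, 0.963, and 0.960. Those most like PMAIP1 were SESN1, BTG2, and NDUFA5, at 0.990, 0.984, and 0.983. Within the family, the nearest other member was BBC3 for PMAIP1 (0.947), BCL2 for BCL2L1 (0.939), BID for BAX (0.932), BCL2L1 for BAK1 (0.826), and BAK1 for BCL2L11 (0.823). MCL1 was nearest to PMAIP1 (0.835), and BCL2L2 to BBC3 (0.546). These values rest on 10 points that share 5 lines and 2 treatments, and they describe the shape of the levels only.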

How the data were processed

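Poly(A) RNA of 5 lines in 2 treatments was sequenced as 30 strand-specific libraries, with ERCC spike-ins added by cell number. The authors aligned reads to hg19 with HISAT2 and computed the deposited FPKM with Cufflinks 2.2.1. The annotation used for counting is not given in the sources used here. Columns were assigned to groups by their names, 3 libraries each. Read counts were not used here, so depth was only ranked from low values.

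The 10 genes and all lists were chosen with earlier results of these data known. limma 3.58.1 in R 4.3.3 was fitted to log2(FPKM + 0.1) of 11575 genes that averaged 1 FPKM or more, in 1 model of 10 groups with an intensity trend, and p-values were adjusted by Benjamini-Hochberg over all tested genes, with a threshold of 0.05. Basal contrasts used FPKM as deposited. CYC065 changes and interactions were taken on FPKM scaled so that the median of the 55 spike-ins that averaged 1 FPKM or more was equal in every library. Scripts were tested on simulated data. As alternatives, pseudocounts of 1 and 0.01, a filter at 5 FPKM or none, the other scaling, median-centred libraries, spike-ins of at least 50 FPKM, a fit restricted to the groups of a contrast, a 1.5-fold minimum, and each library left out were run. All family genes are named, and from each further list the 3 genes with the greatest called change in either mean contrast, except items that are not reported here. Likeness was taken for MCL1, PMAIP1, and each family gene. Promoters came from RefSeq and were placed on GRCh37 by exact match, which gave 1 position for each printed sequence, and exons from GENCODE.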

Additional observations from a re-analysis of the deposited data

Results flagged for a closer look

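Differences between lines in the response to CYC065, on spike-in scaled FPKM, were past the threshold for 7 family values by limma's interaction contrasts. Of the 4 against SH-EP, 1 stayed past it (BBC3 in S62A) with spike-ins of at least 50 FPKM for scaling, and the same value alone of the 4 did so in a fit of only the groups compared. Of the 3 against WT, 0 did so with these spike-ins, without a filter, or in a fit of only the groups compared. Against SH-EP, BBC3 differed by -1.40 (SE 0.33, adjusted p = 0.0193) in WT and -1.23 (SE 0.33, adjusted p = 0.0291) in S62A. In WT, BID differed from SH-EP by -0.84 (SE 0.25, adjusted p = 0.0354) and BAX by -0.98 (SE 0.28, adjusted p = 0.034). Against WT, the response in T58A S62A differed by 1.02 (SE 0.27, adjusted p = 0.037) for BCL2L1, 1.28 (SE 0.33, adjusted p = 0.037) for BBC3, and 0.84 (SE 0.28, adjusted p = 0.0467) for BAX. WT DMSO library b, without which none of the WT interactions was past the threshold, had a spike-in scaled BBC3 level of 7.21 FPKM beside 3.61 and 4.28 in the other WT DMSO libraries.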

How the results depend on the processing

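The count of 19 differences from SH-EP was 18 to 23 with a pseudocount of 1 or 0.01, no filter, a filter at 5 FPKM, centred libraries, or a fit of only the groups compared, but 12 with a required change of 1.5-fold. With spike-in scaling it was 26, but in the other direction. As deposited, all but MCL1 in S62A were higher, and with spike-in scaling all but BBC3 in T58A S62A were lower. On the spike-in scale 1.52 to 8.45% of all tested genes lay above 0 in the 4 lines. The count of 40 decreases with CYC065 was 15 as deposited and 13 with libraries centred on their median, and that of 5 increases 25 and 28. The 40 include BCL2 in each of the 5 lines, as a description only. With spike-ins of at least 50 FPKM there were 3 increases. Interactions with SH-EP numbered 4, against 11 as deposited, 12 centred, and 1 with spike-ins of at least 50 FPKM. For the counts of 11 and 12, the share of all genes called was not taken. Differences from WT numbered 10, against 6 in a fit of only the groups compared and 2 at 1.5-fold. With spike-in scaling, 2 family genes were past the threshold in T58A, both higher, 6 in S62A, all lower, and 5 in T58A S62A, all higher. PMAIP1 in S62A, BCL2L2 in T58A, and MCL1 in T58A S62A were not past it there. The share of all genes called against WT on that scale was not taken. Interactions with WT numbered 3, against 1 with a pseudocount of 1, 6 with 0.01, 6 with a filter at 5 FPKM, and 0 without a filter, as deposited, with spike-ins of at least 50 FPKM, centred, or fitted alone. Leaving out 1 library gave 17 to 20 differences from SH-EP, 7 to 11 from WT, 38 to 40 decreases, 4 to 6 increases, and interactions of 0 to 4 with SH-EP and 0 to 11 with WT. The rise in the MCL1 share was 7.24 to 8.90 percentage points, lowest without WT DMSO b. BCL2 and BCL2L11 have no value under the 5 FPKM filter. No paired analysis was possible because the library numbers in the table do not match those of the labels. Depth limits BCL2 and BCL2L11 most, and the smallest exact p of 3 against 3 libraries is 0.1.

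Counting values past the threshold on at least 1 of the scales compared, directions turned in 88 single-gene values, 61 with the other scaling and 27 with libraries centred on their median, and by construction each moves all genes of a library by 1 amount; beyond that the cause was not tested. Spike-in scaled differences from SH-EP were as follows. In WT BAK1 -0.85, BAX -0.59, BBC3 -0.74, BCL2L1 -1.14, BID -0.13, MCL1 -1.17, and PMAIP1 -1.12. In T58A BAK1 -0.92, BAX -0.30, BCL2L1 -0.83, BCL2L2 -0.72, MCL1 -0.85, and PMAIP1 -0.38. In S62A BAK1 -1.87, BAX -1.45, BBC3 -1.18, BCL2L1 -1.77, BCL2L11 -1.01, BID -1.05, and PMAIP1 -1.35. In T58A S62A BAK1 -0.77, BCL2L1 -0.54, BCL2L2 -0.65, and PMAIP1 -0.27. In the mean BAK1 -1.10, BAX -0.58, BBC3 -0.29, BCL2L1 -1.07, BCL2L11 -0.58, BCL2L2 -1.17, BID -0.15, and PMAIP1 -0.78. Against WT the spike-in scaled values were as follows. In S62A BCL2L1 -0.64, BCL2L2 -0.63, and PMAIP1 -0.23. In T58A S62A MCL1 0.22. Changes with CYC065 as deposited were as follows. In SH-EP BAX 0.72, BCL2L2 0.22, BID 0.78, and MCL1 0.29. In WT BAX 0.17, BCL2L2 0.00392, BID 0.38, MCL1 0.32, and PMAIP1 1.67. In T58A BAX 0.46, BCL2L2 0.11, BID 0.53, and MCL1 0.32. In S62A BAX 0.48, BID 0.60, and MCL1 0.52. In T58A S62A BAX 0.41, BCL2L2 0.0942, BID 0.47, and MCL1 0.46. In the mean BAX 0.45, BCL2L2 0.0761, BID 0.55, and MCL1 0.38. With centred libraries they were as follows. In SH-EP BAX 0.86, BCL2L2 0.36, BID 0.92, and MCL1 0.43. In WT BAX 0.35, BCL2L2 0.18, BID 0.55, MCL1 0.50, and PMAIP1 1.84. In T58A BAX 0.65, BCL2L2 0.29, BID 0.71, and MCL1 0.51. In S62A BAX 0.65, BCL2L2 0.12, BID 0.77, and MCL1 0.69. In T58A S62A BAX 0.56, BCL2L2 0.25, BID 0.62, and MCL1 0.62. In the mean BAX 0.61, BCL2L2 0.24, BID 0.71, and MCL1 0.55. For interactions with SH-EP, in S62A MCL1 0.23 as deposited, and with centred libraries the values were MCL1 0.26 in S62A, PMAIP1 0.32 in WT.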
